A study of Homo sapiens with 2 samples.

Results

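Levels of 10 genes that hold RNA polymerase II near promoters, or release it, were examined in heat-shocked HEK293T cells. The members were taken by symbol: CDK9, CCNT1 and CCNT2 of the kinase P-TEFb, HEXIM1 and LARP7 of the 7SK ribonucleoprotein (7SK RNP), NELFA, NELFB and NELFE of NELF, and SUPT4H1 and SUPT5H of DSIF. All 10 were matched to an Ensembl gene among the 57736 genes listed. HEK293T, a line grown from human embryonic kidney to which the large T antigen of SV40 was added, is given as wild type in the labels. Cells were heated for 20 min at 43 °C, kept for 6 h at 37 °C and lysed separately for each of 2 replicates. The study's text describes a longer heating at 43 °C. Poly(A)+ RNA of each replicate was sequenced with 50 bp reads. Both libraries share this treatment and form 1 group, and no untreated cells were analysed here, so that no value below is a response to heat. The molecule field of the labels reads genomic DNA, but the protocol they give is one for poly(A)+ RNA.

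Shortly after initiation, RNA polymerase II is halted close to many promoters by DSIF and NELF, which bind the elongating enzyme. P-TEFb, a CDK9 kinase with a T-type cyclin, phosphorylates DSIF, NELF and the polymerase tail, upon which NELF leaves and DSIF stays on as a positive elongation factor. Much of the cell's P-TEFb is kept inactive by the 7SK RNA with HEXIM and LARP7, and heat shock genes are the classic example of promoters with such a halted polymerase.

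The libraries held 22529828 and 26890199 expected counts, that is, counts in which reads matching several genes are shared out by estimate. The 10 members together took 0.0666% and 0.0736% of the TPM (a measure of transcript abundance per length of transcript, with 1 common total for all libraries) in replicates 1 and 2. Genes annotated as nuclear copies of mitochondrial genes were assigned 19.1% and 19.5% of the TPM, and leaving them out raised all member values alike. Whether the reads came from these copies or from mitochondrial transcripts was not tested. The kidney label was checked against 13 kidney epithelial markers, of which 5 reached a TPM of 1 in both libraries (PAX2, CDH1, KRT8, KRT18 and PODXL), with 3 at 0 (CDH16, UMOD and AQP2) and a summed TPM of 126 and 111. Of 9 markers of other cells, COL1A1 and MYOD1 reached this level, the leukocyte markers PTPRC and CD3E were at 0, and the summed TPM was 27.7 and 24.7.

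All 10 members were detected, reaching a TPM of 1 in each library, against 26.3% of all listed genes and 63.8% of protein-coding genes. The mean TPM ran from 15.9 for HEXIM1 to 152 for SUPT5H, a 9.56-fold span. These are levels in bulk RNA, where fewer cells with a transcript and less of it per cell cannot be told apart. The order by mean TPM was SUPT5H, LARP7, SUPT4H1, NELFE, NELFA, CDK9, CCNT1, NELFB, CCNT2 and HEXIM1. In this order 4 of 9 neighbouring pairs had overlapping ranges: LARP7 with SUPT4H1, SUPT4H1 with NELFE, NELFB with CCNT2, and CCNT2 with HEXIM1. Of all 45 pairs of members, 40 stood in the same order in both libraries. Among 12367 detected protein-coding genes, the members' percentiles went from 45.3 for HEXIM1 to 93.4 for SUPT5H. Hence the pausing and release genes included both middling and abundant transcripts. The DSIF genes and the NELF genes other than NELFB were on the abundant side. So were LARP7 of the 7SK RNP (percentile 90.2) and CDK9 of P-TEFb (81.7), so that abundance did not separate pausing genes from the others.

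**Figure D1:**
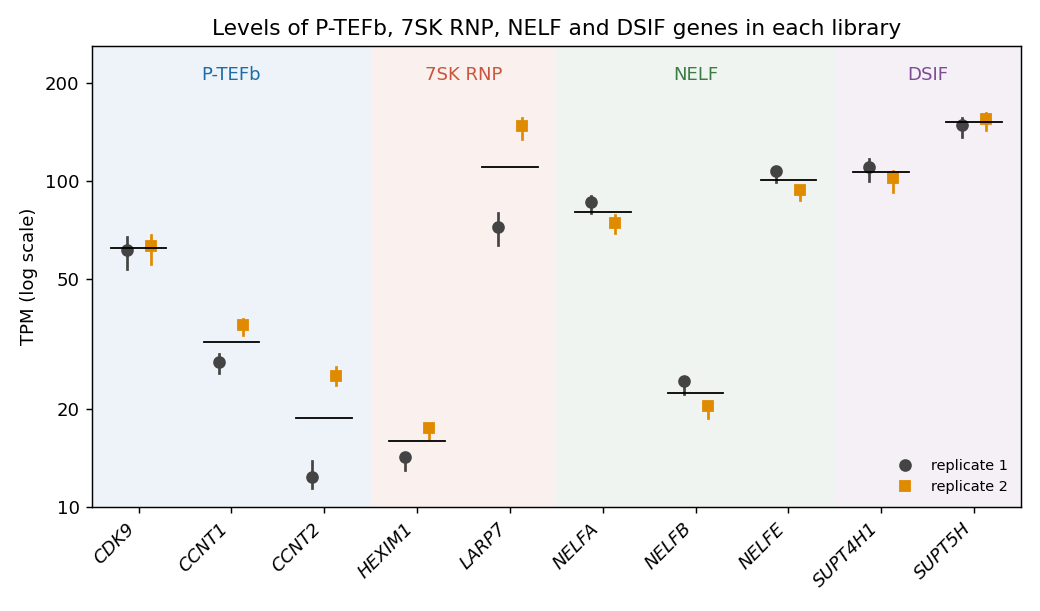
TPM of the 10 members on a log scale in replicate 1 (circles) and replicate 2 (squares), grouped by complex, with vertical lines for the credibility bounds deposited with each value and horizontal bars for the mean of both libraries. LARP7 (72.3 and 148) and CCNT2 (12.35 and 25.3) lie far apart between the libraries, while CDK9 (61.6 and 63.1) and SUPT5H (149 and 155) lie nearly level.

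The regions just upstream of the annotated starts are shown for the 6 members with TATAAA or CGGAAG there, to set the letters at these promoters beside the levels of their transcripts. Sequences are from RefSeq on GRCh38.p14, the last 100 bases before the start, 5′ to 3′ on the gene's strand, and all 10 members had at least 1 window in this table, 13 windows in all. Capitals mark TATAAA in HEXIM1, the sequence of a TATA box, and CGGAAG in the others, the core bound by ETS factors.
HEXIM1: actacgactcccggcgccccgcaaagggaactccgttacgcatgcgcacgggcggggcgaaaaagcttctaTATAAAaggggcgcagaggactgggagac
CDK9: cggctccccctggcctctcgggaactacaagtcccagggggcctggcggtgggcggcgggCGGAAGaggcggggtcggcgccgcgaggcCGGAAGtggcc
CCNT1: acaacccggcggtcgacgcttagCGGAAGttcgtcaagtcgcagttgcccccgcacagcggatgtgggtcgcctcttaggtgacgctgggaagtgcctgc
NELFB: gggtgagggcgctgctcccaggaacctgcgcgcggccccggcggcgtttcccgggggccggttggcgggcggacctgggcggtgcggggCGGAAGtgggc
NELFE: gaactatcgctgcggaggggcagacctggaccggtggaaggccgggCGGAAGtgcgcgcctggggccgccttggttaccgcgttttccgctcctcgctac
SUPT4H1: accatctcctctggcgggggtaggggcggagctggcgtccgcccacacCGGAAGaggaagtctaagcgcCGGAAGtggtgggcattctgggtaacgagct

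These stretches lie at chr17:45148375-45148474 on the plus strand for HEXIM1, chr9:127785934-127786033 on the plus strand for CDK9, chr12:48716708-48716807 on the minus strand for CCNT1, chr9:137255227-137255326 on the plus strand for NELFB, chr6:31958972-31959071 on the minus strand for NELFE, and chr17:58352202-58352301 on the minus strand for SUPT4H1. Each window searched was 300 bases long with 250 before the start, on both strands. TATAAA was found in 1 of 10 members, HEXIM1, where its first letter lay at position -29, against 14.0% of 27305 genes with a window. CGGAAG was found in 7 of 10 members (CDK9, CCNT1, LARP7, NELFA, NELFB, NELFE and SUPT4H1) against 22.6% of genes. CDK9 and SUPT4H1 each held it at a pair of places within the stretch shown, and NELFE had further copies upstream of it. GGGCGG, the GC box bound by SP factors, was found in 9 of 10 members against 48.3%, with NELFA the exception, and CCAAT in 4 of 10 (CCNT1, CCNT2, HEXIM1 and LARP7) against 39.7%. GGGCGG and CGGAAG overlap by their shared CGG in the stretches of CDK9, NELFB and NELFE, so that these matches are not separate there. AAGATGG, the core bound by YY1, was found in NELFA and SUPT5H, against 7.11% of genes. GAANNTTC, a pair of inverted heat shock factor units, was found in 0 of 10 members against 8.21% of genes, which says only that these letters are not in these windows. Among the 10025 detected protein-coding genes with a window in the table, the shares were 8.02% for TATAAA, 38.7% for CGGAAG, 79.3% for GGGCGG, 43.7% for CCAAT, 9.47% for AAGATGG and 6.32% for GAANNTTC, so that the shares of these motifs other than TATAAA and GAANNTTC were higher among detected genes than among all genes. GC content of the members' windows ran from 31.3% to 82.0%, with a median of 58.7% over all windows of the table. The lowest was another annotated start of CCNT1 and the highest was CDK9.

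CDK9 is the kinase subunit of P-TEFb (ENSG00000136807, chr9:130547958-130553071 on the plus strand of GRCh37). Its TPM was 61.6 in replicate 1 and 63.1 in replicate 2, with a mean of 62.3 ± 1.02 (SD, n = 2). This was the smallest SD of the 10 members in deposited TPM. With a fixed transcript length for each gene the SD of CDK9 was 3.28, above 3.10 for CCNT1 and 3.16 for SUPT4H1. The TPM of CDK9 rested on 1877 and 1934 expected counts.

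The cyclins that activate CDK9 were lower than the kinase. CCNT1 encodes cyclin T1, the partner that HIV-1 Tat also binds (ENSG00000129315, chr12:49082241-49110781, minus strand), and its TPM was 28.0 and 36.3, with a mean of 32.1 ± 5.90. CCNT2 encodes cyclin T2 (ENSG00000082258, chr2:135675805-135716912, plus strand), and its TPM was 12.35 and 25.3, with a mean of 18.8 ± 9.16. CCNT1 was above CCNT2 within each library, and the ratio of CCNT2 to CCNT1 was 0.442 in replicate 1 and 0.697 in replicate 2. The upper credibility bound of CCNT2 in replicate 1 was 13.9 and the lower bound in replicate 2 was 23.6, so that the libraries lay apart by more than these bounds. The summed TPM of both cyclins was 0.654 of that of CDK9 in replicate 1 and 0.977 in replicate 2. Cyclin T transcripts thus did not exceed CDK9 transcripts in either library, and in deposited TPM they were nearly as many in replicate 2. With a fixed transcript length the ratios were lower, 0.445 in replicate 1 and 0.718 in replicate 2.

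The inhibitory 7SK RNP was represented by the member lowest in mean deposited TPM and by the one with the largest SD. In proportion CCNT2 varied as much as LARP7, each with a log2 ratio of replicate 2 over replicate 1 of 1.03 in TPM. In replicate 1 CCNT2, at 12.35, was below HEXIM1. HEXIM1 encodes the protein that inhibits CDK9 when bound to 7SK RNA (ENSG00000186834, chr17:43225842-43229466, plus strand), and its TPM was 14.3 and 17.5, with a mean of 15.9 ± 2.31. LARP7 encodes the protein that binds and stabilises 7SK RNA (ENSG00000174720, chr4:113558233-113578852, plus strand), and its TPM was 72.3 and 148, with a mean of 110.2 ± 53.5. LARP7 was 5.07 times HEXIM1 in replicate 1 and 8.44 times in replicate 2. HEXIM1 was well below the kinase it inhibits, at 0.232 and 0.278 of the TPM of CDK9. The related inhibitor HEXIM2 had a TPM of 9.62 and 7.95, or 0.674 and 0.454 of HEXIM1. HEXIM1 and HEXIM2 together reached 0.388 and 0.404 of CDK9, a ratio of 0.396 ± 0.0116, so that in TPM their sum varied less against CDK9 than either of the cyclins did, although with a fixed transcript length the values were 0.586 and 0.730.

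The other constituents of the 7SK RNP were also present. MEPCE, which caps 7SK RNA, had a TPM of 72.9 and 62.9. RN7SK, the 7SK RNA itself, had a TPM of 41.2 and 34.6. RN7SK is made by RNA polymerase III and carries no poly(A) tail, so its value in libraries of poly(A)+ RNA is no measure of the level in the cells.

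Subunits of NELF, which holds the polymerase in the paused state, fell into 1 low and several high transcripts. NELFA (ENSG00000185049, chr4:1984444-2043630, minus strand), which contacts the polymerase, had a TPM of 86.4 and 74.5, with a mean of 80.4 ± 8.44. NELFB (ENSG00000188986, chr9:140149779-140167994, plus strand), which joins the other subunits, had a TPM of 24.35 and 20.4, with a mean of 22.4 ± 2.78. NELFE (ENSG00000204356, chr6:31919864-31926815, minus strand), the subunit with an RNA recognition motif, had a TPM of 107 and 93.9, with a mean of 101 ± 9.48. All 3 were lower in replicate 2, and their ratios to each other hardly moved. NELFA was 3.55 and 3.65 times NELFB, NELFE was 4.41 and 4.60 times NELFB, and NELFE was 1.24 and 1.26 times NELFA. NELFCD, the remaining subunit, is no member and had a TPM of 95.3 and 95.4, close to NELFE. NELFB therefore stood alone as the low subunit, in both libraries.

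DSIF, the heterodimer that takes part in pausing and then in elongation, had the highest median of the complexes, although LARP7 was above SUPT4H1 by its mean. With a fixed transcript length the lead over NELF was small. The medians in replicates 1 and 2 were then 83.7 and 79.1 for DSIF against 81.6 and 75.6 for NELF. SUPT5H encodes SPT5 (ENSG00000196235, chr19:39926796-39967310, plus strand), and its TPM was 149 and 155, with a mean of 152 ± 3.995. SUPT4H1 encodes its small partner SPT4 (ENSG00000213246, chr17:56422536-56430454, minus strand), and its TPM was 110.4 and 102, with a mean of 106 ± 5.61. SUPT5H was above SUPT4H1 in both libraries, 1.35 and 1.51 times. The proteins form a dimer of 1 copy each, but only transcripts were measured here. In deposited TPM the highest member by mean was 1.43 times the lowest in DSIF, 3.31 times in P-TEFb, 4.50 times in NELF and 6.93 times in the 7SK RNP. DSIF and the 7SK RNP have 2 members each, and the others have 3. With a fixed transcript length DSIF was not the closest in replicate 1. There SUPT5H was 1.32 times SUPT4H1 and LARP7 was 1.31 times HEXIM1, against 1.34 and 2.35 in replicate 2.

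The complexes were compared by the median TPM of their members within each library. The medians were 28.0 and 36.3 for P-TEFb, 43.3 and 82.8 for the 7SK RNP, 86.4 and 74.5 for NELF and 129.8 and 129 for DSIF. Relative to P-TEFb, the log2 difference was 0.91 ± 0.39 for the 7SK RNP, 1.33 ± 0.42 for NELF and 2.02 ± 0.28 for DSIF (mean and SD over 2 libraries, n = 2). All were positive in both libraries, the smallest being 0.63 for the 7SK RNP in replicate 1. No test of these differences was made. The value for the 7SK RNP is the midpoint of 1 low and 1 high gene, and with the lowest member of each complex in place of the median it became -0.16 ± 0.52. Without scaling to length, in CPM (counts scaled to the library total), it was -0.27 ± 0.48, NELF over P-TEFb dropped to 0.14 ± 0.17, less than its SD, and DSIF over P-TEFb was 0.85 ± 0.10.

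Levels between genes depend on the transcript length by which counts are divided, and the lengths in the deposited tables, weighted over the isoforms that were estimated as expressed, differed from those of single reference transcripts. LARP7, with 15 transcripts in the authors' annotation, had a deposited length of 755 bases in replicate 1 and 807 in replicate 2, against 2107 for its canonical GENCODE transcript. CCNT1 and CCNT2 had 3276 and 3067 bases in replicate 1 against 6788 and 6920. HEXIM1, with 1 transcript, had 4785 bases against 3625 in the other annotation. When counts were divided by the canonical length of each gene, an alternative chosen after seeing the data, the mean of LARP7 became 52.6 and its place in the order moved from 2 to 6, while HEXIM1 became 27.8 and moved from 10 to 8. The lowest gene was then CCNT2 at 10.8 and the highest were NELFE at 95.6 and SUPT5H at 92.8, whose ranges overlap. LARP7 was 1.31 and 2.35 times HEXIM1 at fixed length, so the direction held in both libraries, with a smaller ratio. The cyclins summed to 0.445 and 0.718 of CDK9, NELFE was 2.99 and 3.11 times NELFB, and SUPT5H was 1.32 and 1.34 times SUPT4H1. NELFB as the low NELF subunit of the members, the cyclins below CDK9 and HEXIM1 below CDK9 (0.447 and 0.607) were thus seen with either length. The median over all detected genes of the ratio of fixed to deposited values was 0.947, against 0.477 for LARP7 and 1.75 for HEXIM1.

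**Figure D2:**
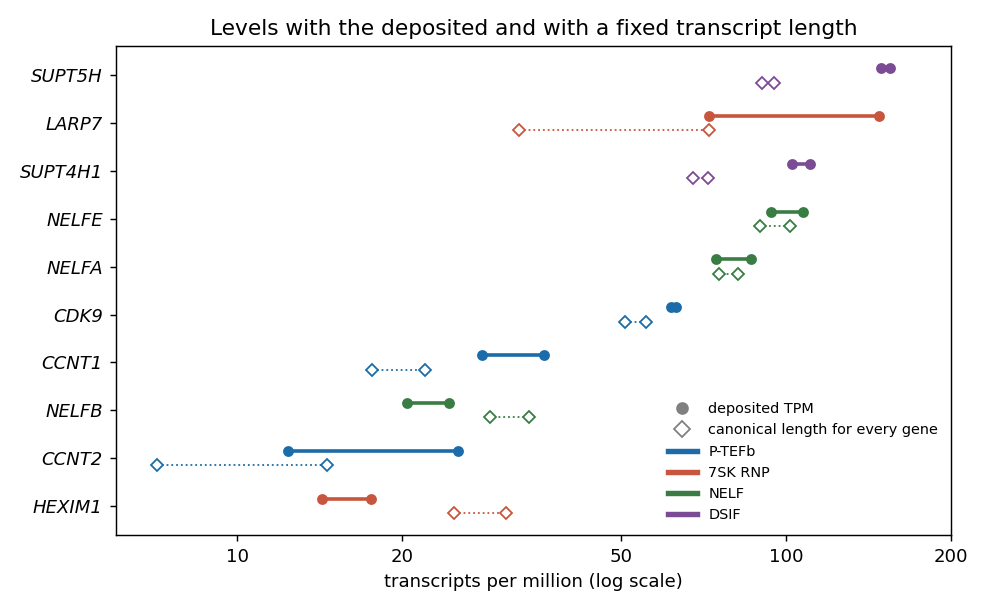
TPM of each member on a log scale as deposited (filled circles) and after dividing counts by the canonical transcript length (open diamonds), with a line joining the 2 libraries and colours for the complexes. LARP7, SUPT5H, SUPT4H1, CCNT1 and CCNT2 move to lower values with the fixed length, and HEXIM1 and NELFB move to higher ones.

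How far the 2 libraries differed beyond counting noise was asked next, with an exact two-sided binomial test on the rounded counts of each gene, Benjamini-Hochberg adjusted over 19714 genes. This test compares these libraries, not conditions, and its intervals cover counting error only. All 10 members passed at an adjusted p under 0.05, 4 higher in replicate 2 and 6 higher in replicate 1, against a background of 42.2% of genes tested (22.1% higher in replicate 2 and 20.1% in replicate 1). The members have many counts, and among the 4742 genes with at least as many summed counts as the lowest member the share was 77.6%. Passing the test was therefore common for genes of this abundance.

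LARP7 had the largest difference, a log2 ratio of replicate 2 over replicate 1 of 1.04 (95% interval 0.93 to 1.15, adjusted p = 5.8e-82 by the exact binomial test), from 933 expected counts to 2331. CCNT2 followed with 0.92 (0.79 to 1.05, adjusted p = 6.2e-45 by the same exact test), from 680 to 1561. These were the only members with an absolute log2 ratio of at least 0.5, which 14.1% of genes tested reached together with the adjusted p (12.3% higher in replicate 2 and 1.82% in replicate 1). CCNT1 and HEXIM1 were higher in replicate 2 by a log2 ratio of 0.21 and 0.20. The 6 members higher in replicate 1 were all 3 NELF genes, both DSIF genes and CDK9, and their log2 ratios lay between -0.35 for NELFB and -0.19 for SUPT5H. When a biological coefficient of variation of 0.1 was assumed in edgeR's exact test, 2 members passed, LARP7 (adjusted p = 6.1e-05) and CCNT2 (adjusted p = 0.000797), against 7.69% of genes (7.18% higher in replicate 2 and 0.512% in replicate 1).

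The direction in TPM differed from that in counts for 2 members. CDK9 had a log2 ratio of -0.24 in counts scaled by TMM and 0.03 in TPM, and SUPT5H had -0.19 in counts and 0.05 in TPM. The deposited length of CDK9 was 1718 bases in replicate 1 and 1526 in replicate 2, and that of SUPT5H was 1812 and 1643. For these genes the counts were thus divided by a shorter length in replicate 2. With the canonical length in both libraries, CDK9 was at 55.5 and 50.9 and SUPT5H at 95.2 and 90.5. NELFB, with a deposited length of 2698 bases in both libraries, had a log2 ratio of -0.35 in counts and -0.25 in TPM. How far the length accounts for the nearly level TPM values was not tested.

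The differences between the libraries followed the GC content of the transcripts. Over 13544 genes in 10 GC classes, the median log2 ratio fell from 0.67 in the class of lowest GC content to -0.25 in the class of highest. LARP7, CCNT2 and CCNT1 had the lowest GC content among the members, at 38.1%, 39.1% and 41.3%, and these were 3 of the 4 members higher in replicate 2. The members higher in replicate 1 had GC contents of 49.1% to 63.4%. After the trend with GC content was removed, LARP7 had a log2 ratio of 0.36 (adjusted p = 5.5e-10, exact binomial test) and CCNT2 of 0.37 (adjusted p = 1.4e-07, exact binomial test), each well under its value before. HEXIM1, at 48.3% GC, was at 0.23 after removal and 0.20 before. CCNT1 changed sign to -0.12 and SUPT4H1 was at -0.14, both still past the threshold. The NELF genes, CDK9 and SUPT5H no longer passed, with log2 ratios from -0.10 for NELFB to 0.011 for SUPT5H. In all 5 members passed, against 26.8% of genes tested and 55% of those with as many counts as the lowest member. With a trend in transcript length removed instead, 8 members passed, without HEXIM1 (log2 ratio 0.0546) and SUPT4H1 (-0.0865). The share of all genes passing under this setting is not given here, so this count is no result about the members. The part of GC content in the difference of each single member was not tested further.

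**Figure D3:**
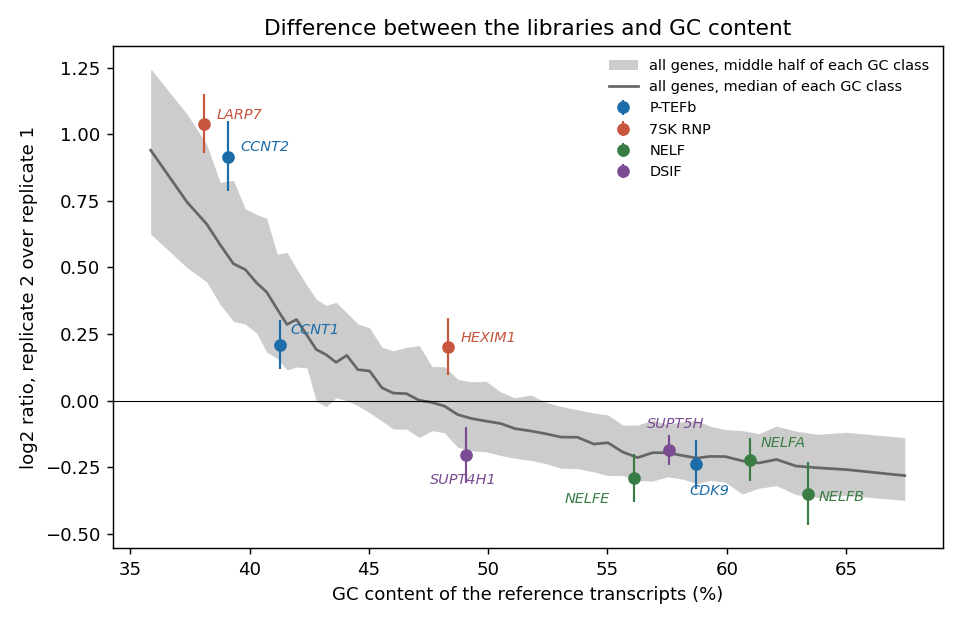
Log2 ratio of replicate 2 over replicate 1 against the GC content of the reference transcripts in percent, with points and 95% counting intervals for the members, coloured by complex, and the median (line) and quartiles (grey band) of all genes in 50 GC classes. LARP7 at 1.04 and CCNT2 at 0.92 lie above the band at its left end, HEXIM1 at 0.20 lies above it in the middle, and the NELF, DSIF and CDK9 points lie between -0.35 and -0.19, inside the band or near its lower edge.

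Reads of some members could belong to neighbouring genes, since whether strand was used when reads were assigned is not stated in the sources used here. LARP7 shares 1318 exonic bases with MIR302CHG on the opposite strand, which held 14.3 and 30.8 expected counts beside 933 and 2331 for LARP7. SUPT4H1 shares 577 bases with TSPOAP1-AS1 (1.86 and 12.35 counts), HEXIM1 shares 520 bases with HEXIM2-AS1 (0 and 1.44 counts), and CCNT2 shares 150 bases with CCNT2-AS1 (47.9 and 56.9 counts), each on the opposite strand. The counts listed for these neighbours were small beside those of the members, but without strand the reads in shared bases cannot be told apart. Of the 50-base sequences in its reference transcripts, SUPT4H1 shared 20.8% with another listed gene, HEXIM1 13.2%, LARP7 13.04% and the other members at most 1.74%. When genes that are not listed were counted as well, SUPT4H1 shared 1680 of its 2168 sequences with another gene. The posterior SD deposited with the counts was at most 3.15 counts for any member. It rests on the listed genes, so it does not cover reads of genes that are not listed.

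The wider elongation machinery was examined with 51 further genes, all of which were detected. The super elongation complex, which carries active P-TEFb, ran from EAF2 at a mean TPM of 2.74, an ELL-associated factor, to AFF4 at 58.2, its scaffold. Genes for release and recruitment of P-TEFb ran from JMJD6 at 24.0 to PPM1G at 178, a phosphatase that frees P-TEFb from the 7SK RNP. Kinases of the polymerase tail and their partners ran from MNAT1 at 21.9, a subunit of the CDK7 kinase, to CCNK at 93.9, the cyclin of CDK12 and CDK13. The PAF1 complex, which travels with the elongating polymerase, ran from CDC73 at 23.2 to RTF1 at 83.9, and other elongation factors ran from POLR2M at 25.1 to SSRP1 at 250.3, a subunit of the histone chaperone FACT. Integrator, which cleaves nascent RNA at paused polymerases, ran from INTS5 at 9.42 to INTS11 at 169, its endonuclease. The median of the 51 genes was a TPM of 37.3, against 71.4 for the 10 members.

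**Figure D4:**
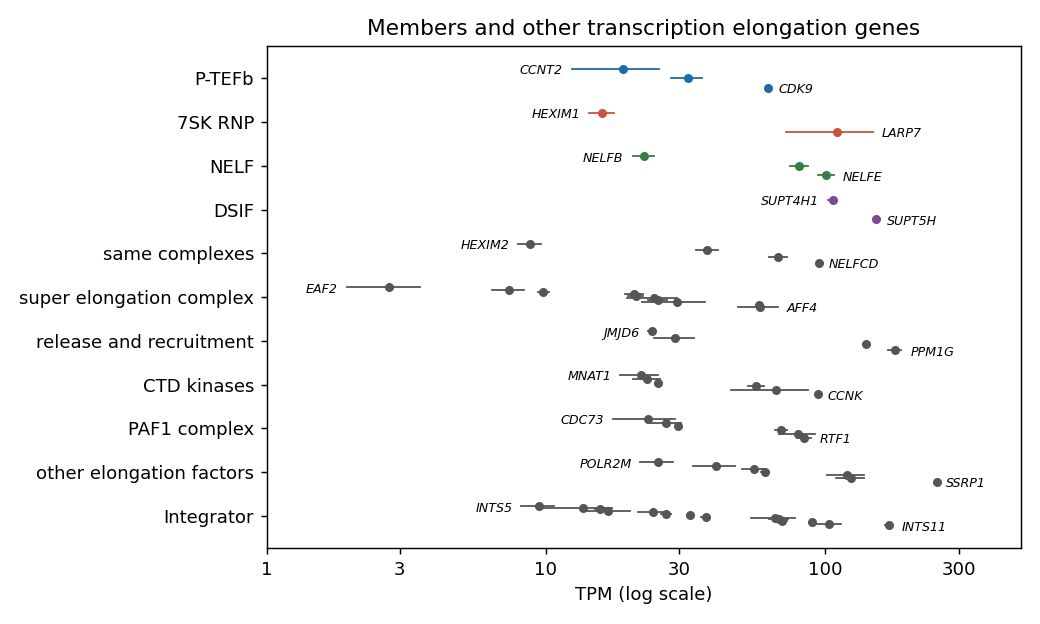
Mean TPM on a log scale of the 10 members (coloured, by complex) and of the 51 further elongation genes (grey, by group), with lines from the value in one library to the other and the lowest and highest gene of each group named. The groups overlap widely, EAF2 at 2.74 is the lowest gene and SSRP1 at 250.3 the highest.

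Between the libraries, 38 of the 51 genes passed the exact binomial test, 22 higher in replicate 2 and 16 higher in replicate 1. Of all genes tested 42.2% passed, 22.1% higher in replicate 2 and 20.1% in replicate 1. Among the genes with at least as many summed counts as the lowest member the share was 77.6%. Some of the 51 genes had fewer counts than that, such as EAF2 with 25 and 55. The median log2 ratio was 0.03 for the 51 genes against 0.02 over all genes tested. The 4 genes of the same complexes, NELFCD, HEXIM2, MEPCE and RN7SK, were all higher in replicate 1, and 0 of them passed after the GC trend was removed (adjusted p from 0.0716 to 0.543, exact binomial test). In the super elongation complex 5 of 10 genes passed, all higher in replicate 2, and in the PAF1 complex 5 of 6, with 4 higher in replicate 2. Integrator had 10 of 14, 4 higher in replicate 2 and 6 in replicate 1, the other elongation factors had 7 of 7, the tail kinases 5 of 6 and the release genes 2 of 4. Each of these group counts stands against the same 42.2% of all genes tested, or 77.6% of those with as many counts as the lowest member. After removal of the GC trend 21 of 51 passed, 11 higher in replicate 2 and 10 in replicate 1. The share was then 26.8% of genes tested (13.5% higher in replicate 2 and 13.3% in replicate 1). It was 55% of those with as many counts as the lowest member.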

How the data were processed

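Poly(A)+ RNA from 2 heat-shocked HEK293T cultures was sequenced by the authors with 50 bp reads. The submitters' processing notes name Trimmomatic 0.36, STAR 2.6.1c, RSEM 1.3.1 and the builds hg19 and GRCh37.p13, while the study's methods name featureCounts for counting. The deposited tables carry RSEM's columns. The authors deposited expected counts (in which multi-mapped reads are shared among isoforms and genes), TPM values (scaled to effective length and to a common total) and FPKM values (scaled to length and library size). The posterior SD of each count and the credibility bounds of each TPM, handled as score values, were also deposited as RSEM's sampling step wrote them. They also deposited a pooled table of the series. Sharing reads can move counts between similar genes and sets the length a gene's TPM is divided by. Whether strand was used is not stated in the sources used here.

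Positions, overlaps and GC content came from GENCODE on GRCh37, of another release than the authors', with 96.1% of identifiers matched, and promoter sequences came from RefSeq on GRCh38.p14. A gene was detected if it reached a TPM of 1 in each library. The libraries were compared per gene by an exact two-sided binomial test on expected counts rounded to whole numbers, conditional on their sum, with shares from edgeR 4.0.16 TMM factors (R 4.3.3), for genes whose counts summed to 10 or more (SciPy 1.17.1, tested on simulated data). Adjustment was Benjamini-Hochberg with a threshold of 0.05. Log2 ratios used a pseudocount of 0.5 counts. The GC trend was the median ratio in 50 GC classes of genes whose counts summed to 100 or more. The labels place both libraries in 1 group, separately lysed, so no comparison of conditions was possible. The p-values of the binomial test set the difference between these libraries, which may be technical, against counting noise only. A fixed-length TPM was computed from the canonical transcript less 48 bases.

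All 10 members are named, as are the 4 further genes of the same complexes and the lowest and highest gene of each other group. The members and lists were chosen with earlier results of these data known. Alternatives covered thresholds, units, scaling by library totals or DESeq2 1.42.0 size factors, count minimums, GC and length trends, an edgeR exact test with an assumed coefficient of variation of 0.1, and single libraries. The fixed transcript length was added after seeing the data.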

Additional observations from a re-analysis of the deposited data

How the results depend on the processing

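No paired analysis was possible because the labels give only 1 group. All 10 members and at least 45 of the 51 wider genes were detected under each threshold, unit and single library tried. The 10 members that differed between the libraries became 5 with the GC trend removed, 2 with an assumed coefficient of variation and 2 with a minimum log2 ratio. With the length trend removed they became 8 (HEXIM1 and SUPT4H1 no longer passed), a setting for which the share of all genes is not given here. The wider genes, 38 of 51, became 21, 3 and 6 under the GC, variation and log2 ratio settings, where 26.8%, 7.69% and 14.1% of all genes tested passed. With the GC trend removed the log2 ratio turned to -0.12 for CCNT1, 0.0073 for NELFA and 0.011 for SUPT5H. The 7SK RNP over P-TEFb, 0.91, turned to -0.27 in CPM and -0.16 with the lowest members, and was 0.39 with same-complex genes added and 0.63 to 1.19 in single libraries. NELF over P-TEFb, 1.33, was 0.14 in CPM, 0.85 by the mean, 0.34 with the lowest members, 2.00 with a fixed transcript length (chosen after seeing the data) and 1.04 to 1.63 in single libraries. DSIF over P-TEFb, 2.02, was 0.85 in CPM, 2.59 with the lowest members, 2.05 with a fixed transcript length and 1.83 to 2.21 in single libraries. The span of the members, 9.56-fold, was 8.83 to 12.1 in single libraries. The causes were not tested, other than that CPM is not per length. The binomial test sees counting noise only, and the spread between cultures rests on 2 libraries for each gene.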

Other observations

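Among the genes outside the 10 members, CCNH, the cyclin of CDK7, was singled out after its values were seen. It had a TPM of 46.1 and 87.04, and its log2 ratio of replicate 2 over replicate 1 was 0.98, close to those of LARP7 and CCNT2, with a GC content of 39.7%. After the GC trend was removed its log2 ratio was 0.48 (adjusted p = 6.9e-14, exact binomial test), so it still passed, as LARP7 and CCNT2 did.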
